A study of Homo sapiens with 4 samples.

Results

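The LIM homeobox genes described here are *LHX1*, *LHX2*, *LHX3*, *LHX4*, *LHX5*, *LHX6*, *LHX8*, *LHX9*, *ISL1*, and *ISL2*, chosen by name, and they are 10 of the 20033 protein-coding genes annotated on the chromosomes studied. The data were CUT&RUN peak lists, in which the chromatin around an antibody-bound protein is cut with micrococcal nuclease and the released fragments are sequenced. HSSY II cells, a human synovial sarcoma (SS) line positive for SS18::SSX1, were treated for 4 days with DMSO or with 2.5 μM MS67, and each condition had 1 library for SS18::SSX and 1 for WDR5. All 4 libraries came from the same cell line, each from 1000000 human cells mixed with 50000 mouse NIH-3T3 cells (5%) as a spike-in. SS18::SSX is the fusion protein that defines SS and enters the SWI/SNF chromatin-remodeling complex, WDR5 is a shared subunit of the KMT2/MLL methyltransferase complexes, and MS67 is a PROTAC that directs WDR5 to degradation. The comparison of MS67 with DMSO addresses whether the chromatin binding of SS18::SSX depends on WDR5. A peak was assigned to a gene when it overlapped the gene body or the 20 kb on either side by at least 1 bp, and it was a promoter peak when its center lay no more than 1000 bp before or 100 bp after a transcription start. There was 1 library per condition, so differences between treatments could not be set against a spread between replicates, and p-values are not given. Intervals on shares are exact (Clopper-Pearson, 95%) and cover counting error only. Peak lists carry no expression values, so the cell type was not checked against markers.

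LIM homeodomain proteins carry a pair of LIM zinc-binding domains ahead of a DNA-binding homeodomain, and they act with the adaptor LDB1, which dimerizes and bridges LIM proteins. They are best known for giving identity to neurons, as in the combinations of LHX3 and ISL1 that specify spinal motor neurons, and for roles in the pituitary, limb, gonad, heart, and pancreas. Many belong to pairs of close paralogs with related expression, such as *LHX1* and *LHX5*, *LHX2* and *LHX9*, *LHX3* and *LHX4*, *LHX6* and *LHX8*, and *ISL1* and *ISL2*. In cells that do not use them, the CpG-rich starts of such developmental genes are classic targets of Polycomb repression.

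Both proteins had peaks at most of these genes with DMSO. The share of genes with a peak stood further above that of all protein-coding genes for SS18::SSX than for WDR5. SS18::SSX had 40 peaks at 9 of the 10 genes, all but *ISL1*, whereas 37.1% of protein-coding genes had at least 1 such peak by the same rule. WDR5 had 27 peaks and reached all 10 genes, against 79.2% of protein-coding genes. With MS67, 2 SS18::SSX peaks remained, at *LHX3* and *LHX5* (4.53% of protein-coding genes had 1), and 6 WDR5 peaks were called, at *LHX4*, *LHX6*, *LHX9*, and *ISL2* (60.1% of protein-coding genes).

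The sequences below are 300 bp of the plus strand of hg38 around 4 of the peaks on which the description turns. They are the highest SS18::SSX peak by −log10 q with DMSO at *LHX3*, *LHX4*, and *LHX5*, and the peak at *LHX5* that was called with both treatments, centered on its summit with MS67. Capitals mark matches on either strand to CCAAT (the NF-Y box), GGGCGG (a GC box), CACGTG (an E-box), and TAATTA (a homeodomain core).
*LHX3*, chr9:136203631-136203930: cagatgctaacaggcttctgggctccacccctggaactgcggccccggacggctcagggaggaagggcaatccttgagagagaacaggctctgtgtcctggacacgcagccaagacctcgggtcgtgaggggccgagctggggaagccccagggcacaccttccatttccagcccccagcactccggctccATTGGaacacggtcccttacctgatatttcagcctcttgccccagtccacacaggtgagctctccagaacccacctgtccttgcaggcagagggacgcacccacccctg
*LHX4*, chr1:180254841-180255140: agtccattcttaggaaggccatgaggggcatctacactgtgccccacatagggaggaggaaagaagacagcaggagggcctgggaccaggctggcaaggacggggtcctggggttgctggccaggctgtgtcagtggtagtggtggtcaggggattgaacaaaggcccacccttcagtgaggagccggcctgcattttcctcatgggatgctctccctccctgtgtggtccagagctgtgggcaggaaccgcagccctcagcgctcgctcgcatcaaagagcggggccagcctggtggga
*LHX5* upstream, chr12:113474966-113475265: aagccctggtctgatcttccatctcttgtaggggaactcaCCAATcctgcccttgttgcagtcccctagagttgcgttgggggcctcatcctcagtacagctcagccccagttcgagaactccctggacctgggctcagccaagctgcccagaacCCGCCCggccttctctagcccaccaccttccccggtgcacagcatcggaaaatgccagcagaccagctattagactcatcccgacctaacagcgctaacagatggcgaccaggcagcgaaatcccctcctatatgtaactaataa
*LHX5* intron, chr12:113466003-113466302: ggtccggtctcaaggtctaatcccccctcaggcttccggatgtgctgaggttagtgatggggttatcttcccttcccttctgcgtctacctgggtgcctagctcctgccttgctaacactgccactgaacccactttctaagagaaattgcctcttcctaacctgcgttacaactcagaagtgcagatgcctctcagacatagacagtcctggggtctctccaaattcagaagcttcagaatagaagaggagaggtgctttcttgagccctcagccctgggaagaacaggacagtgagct
The *LHX3* window had a GC content of 63% with 10 CpG sites, the *LHX4* window 62% with 7, the upstream *LHX5* window 56.7% with 10, and the intronic *LHX5* window 52.3% with 4. One CCAAT match lay in the *LHX3* window, and 1 CCAAT and 1 GGGCGG match lay in the upstream *LHX5* window. The other windows held none of the 4 motifs.

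**Figure D1:**
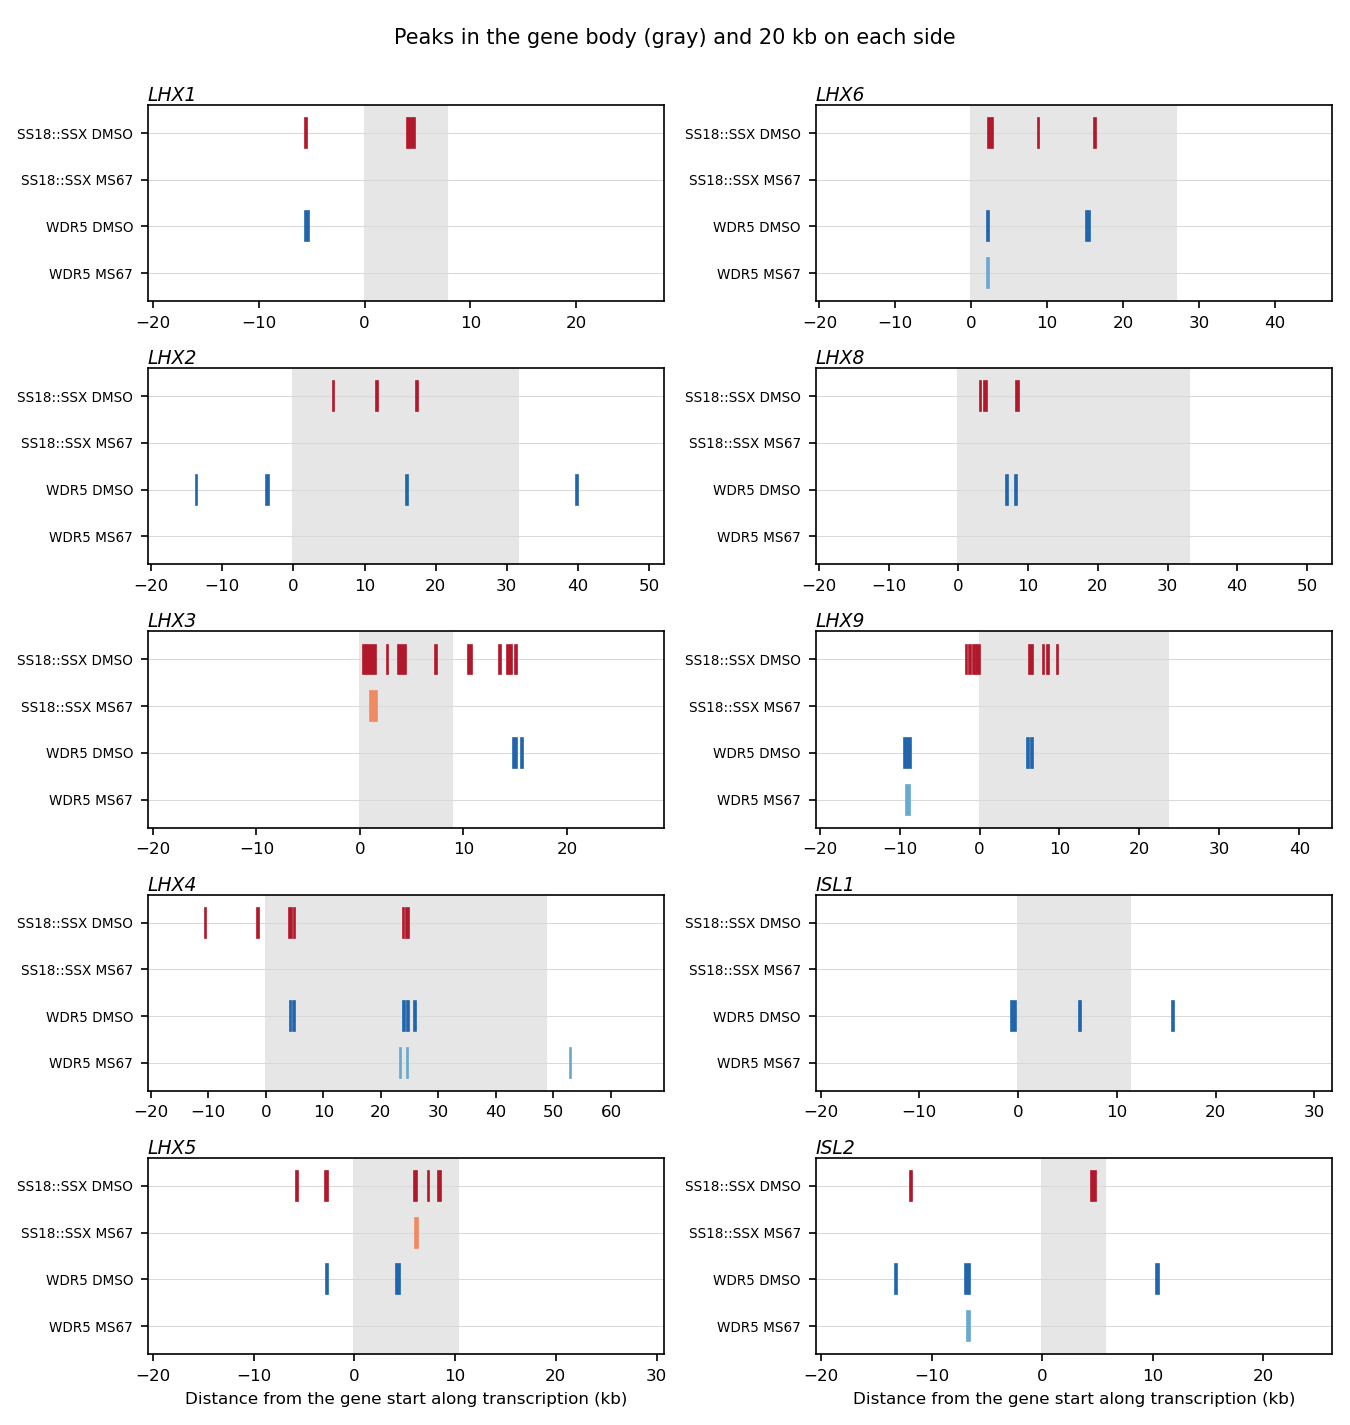
Position of every peak at the 10 genes, drawn to scale as its center and width against the distance in kb from the gene start along the direction of transcription, with the gene body in gray and 1 row for each peak list. SS18::SSX peaks with DMSO crowd the gene body of *LHX3* and the start of *LHX9*, *ISL1* has none, and only *LHX3* and *LHX5* have an SS18::SSX peak with MS67.

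Among the 4 libraries, the SS18::SSX lists held 15141 peaks with DMSO and 1175 with MS67, and the WDR5 lists held 35605 and 14123. The fold and p-value of a MACS2 peak together fix the number of fragments at its summit and its local background, and the lowest background of a list gives the genome-wide coverage. That coverage was 0.541 fragments per bp for SS18::SSX with DMSO and 0.737 with MS67, a ratio of 1.36, so the SS18::SSX library with far fewer peaks was the deeper one. For WDR5 it was 0.368 with DMSO and 0.168 with MS67, a ratio of 0.458.

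*LHX3* and *LHX4* are paralogs required for pituitary development and for motor neuron specification. *LHX3*, which spans chr9:136196250-136205128 on the minus strand, had 8 SS18::SSX peaks with DMSO over 14.9 kb, from an intron near its start to the intergenic DNA past its end, and these peaks covered 24.5% of that stretch. No other gene of the family had as much sequence under SS18::SSX peaks (3652 bp), and 254 protein-coding genes had more. The peak nearest the start, chr9:136203542-136204850, was also the widest at the 10 genes (1309 bp), with a fold enrichment of 3.87 over local background, a −log10 q of 11.6, and 52 fragments at the summit. This peak was in an intron, 932 bp into the gene. With MS67, a narrower peak of 683 bp, chr9:136203493-136204175, overlapped it by 634 bp, with a fold of 2.86, a −log10 q of 3.73, 37 fragments, and a summit 119 bp away. Its center lay 645 bp upstream of an internal *LHX3* start, which made it the promoter peak of SS18::SSX with MS67 at these genes. The other 7 SS18::SSX peaks of *LHX3* had folds from 2.42 to 3.39, and none was overlapped by a peak with MS67. One of them, chr9:136202385-136202549 (fold 2.44), was centered at -793 bp from an internal start and counted as a promoter peak.

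WDR5 at *LHX3* did not follow the SS18::SSX peaks along the gene. Its 2 peaks with DMSO both lay past the end of the gene, 12215 and 11556 bp from the nearest *LHX3* start. The peak at chr9:136189914-136190323 (fold 4.48) overlapped the SS18::SSX peak at chr9:136189966-136190151, the lowest of the 8 by fold (2.42). Over the gene body itself SS18::SSX had 4 peaks and WDR5 had none. No WDR5 peak was called at *LHX3* with MS67.

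*LHX4*, at chr1:180230264-180278984 on the plus strand, had the most overlapping peaks of the 2 proteins. Of its 6 SS18::SSX peaks with DMSO, 4 overlapped a WDR5 peak, in 2 intronic groups about 5 and 24 kb into the gene. The highest of all 40 SS18::SSX peaks by fold was among them, at chr1:180254643-180255079, with a fold of 5.49, a −log10 q of 11.1, and 32 fragments. The WDR5 peak at chr1:180254841-180255111 overlapped it by 239 bp, with summits 40 bp apart, a fold of 3.46, and 29 fragments. After MS67, WDR5 was still called there, at chr1:180254890-180255062 with a fold of 4.11 and 20 fragments, whereas SS18::SSX was not. All 6 SS18::SSX peaks of *LHX4* were without a counterpart with MS67. WDR5 also had 2 peaks with MS67 that no DMSO peak overlapped, 1 in the same intron (chr1:180253666-180253841, fold 4.00) and 1 past the end of the gene in an intron of its neighbor *ACBD6* (chr1:180283143-180283340, fold 4.35, 7 fragments).

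*LHX1* and *LHX5* are paralogs of interneurons and, for *LHX1*, of the kidney and the head organizer. *LHX5*, at chr12:113462033-113472280 on the minus strand, had 5 SS18::SSX peaks with DMSO over 14.4 kb. Of these, 3 in introns had folds from 2.64 to 3.11, and 2 lay upstream in the divergent noncoding gene *LHX5-AS1*. The upstream peak at chr12:113474851-113475207 lay in a noncoding exon of *LHX5-AS1*, had a fold of 3.35, a −log10 q of 6.61, and 38 fragments, and overlapped a WDR5 peak (fold 3.65) by 176 bp. The other, chr12:113477892-113478073 (fold 3.52), was centered at the *LHX5-AS1* promoter. With MS67, neither was called. The intronic peak at chr12:113466059-113466327, which had the lowest fold of the 5 (2.64, 33 fragments), was called with MS67 at chr12:113465994-113466303, with a fold of 3.32, a −log10 q of 5.74, 40 fragments, and a summit 18 bp away. It lay 5678 bp from the nearest *LHX5* start, and its nearest WDR5 peak with DMSO was 1436 bp away. Both WDR5 peaks of *LHX5* were without a counterpart with MS67.

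*LHX1*, at chr17:36936785-36944612 on the plus strand, had 2 SS18::SSX peaks and 1 WDR5 peak with DMSO, and none of either with MS67. The SS18::SSX peak at chr17:36931176-36931312 lay within the WDR5 peak at chr17:36931154-36931505, in an intron of the divergent noncoding gene *LHX1-DT*, with folds of 3.39 and 3.33. The other SS18::SSX peak, chr17:36940784-36941596, lay in a noncoding exon of *LHX1* and had 24 fragments at a fold of 3.49.

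*LHX9* acts in the gonad and the forebrain, and its paralog *LHX2* is needed for the eye, the cerebral cortex, and hair follicle stem cells. *LHX9*, at chr1:197911902-197935478 on the plus strand, matched *LHX3* in the number of SS18::SSX peaks with DMSO, 8 over 11.6 kb. Only 2.15% of protein-coding genes had 8 or more, and 335 had more than 8. Of these peaks, 4 lay upstream of the gene within 1670 bp of its start, and 2 of them were promoter peaks, centered 665 bp (chr1:197911122-197911352, fold 2.69) and 173 bp (chr1:197911505-197911953, fold 3.13) before the start. The highest was inside the gene at chr1:197918146-197918617, with a fold of 3.75, a −log10 q of 8.61, and 41 fragments. It overlapped a WDR5 peak at chr1:197918307-197918531 (fold 3.42) with summits 15 bp apart. None of the 8 was overlapped by a peak with MS67.

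The strongest WDR5 peak assigned to any of the genes, by fold (11.5) and by −log10 q (18.0), was not at *LHX9* itself but in a coding exon of the neighboring *C1orf53*, at chr1:197902474-197903315. Its center was 116 bp from the *C1orf53* start, upstream of *LHX9*. It was called with MS67 as well, with a fold of 8.09 and 11 fragments against 23 with DMSO. The 2 WDR5 peaks inside *LHX9* (folds 3.84 and 3.42) were without a counterpart with MS67.

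*LHX2*, at chr9:124001670-124033301 on the plus strand, had 3 SS18::SSX peaks inside the gene with DMSO. The peak at chr9:124013318-124013604 was the highest, with a fold of 3.93 and 28 fragments, and lay in an intron 1104 bp from an internal start. WDR5 had 4 peaks, 2 upstream, 1 within, and 1 downstream of the gene, none of which overlapped an SS18::SSX peak. The nearest approach of the proteins was 1132 bp. No peak of either protein was called at *LHX2* with MS67.

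*LHX6* and *LHX8* direct the development of ventral forebrain neurons, cortical interneurons for *LHX6* and cholinergic neurons for *LHX8*. *LHX6*, at chr9:122202577-122229626 on the minus strand, was the only one of the 10 genes with promoter peaks of both proteins with DMSO. Its SS18::SSX promoter peak, chr9:122226714-122227382 (fold 4.04, 22 fragments), was centered 75 bp after an internal start. The WDR5 peak at chr9:122227226-122227541 (fold 3.63, 17 fragments) overlapped it by 157 bp with the summits 283 bp apart, the farthest of the 10 overlapping pairs. WDR5 was called at this promoter with MS67 too (chr9:122227316-122227535, fold 4.90, 13 fragments) and SS18::SSX was not. A second WDR5 promoter peak at another *LHX6* start, chr9:122213950-122214519 (fold 4.24, 11 fragments), was without a counterpart with MS67.

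At *LHX8*, chr1:75128434-75161533 on the plus strand, the 3 SS18::SSX peaks with DMSO lay within 5.61 kb in the first part of the gene. The peak at chr1:75136729-75137178 (fold 4.45, 22 fragments) overlapped a WDR5 peak at chr1:75136560-75136845 (fold 4.37, 12 fragments) by 117 bp. None of the 5 peaks of the 2 proteins had a counterpart with MS67.

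*ISL1*, a gene of motor neurons, cardiac progenitors, and pancreatic islets, differed from its paralog *ISL2* and from the other genes in having no SS18::SSX peak in either list. It lies at chr5:51383448-51394730 on the plus strand and had 3 WDR5 peaks with DMSO. The first, chr5:51382752-51383283 (fold 4.17, 13 fragments), was a promoter peak in an exon of the divergent noncoding gene *ISL1-DT*. The second lay in a coding exon (chr5:51389601-51389793, fold 4.52), the third past the gene (chr5:51399008-51399204, fold 4.56), and no WDR5 peak was called with MS67.

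*ISL2*, expressed in motor and sensory neurons, lies at chr15:76336773-76342475 on the plus strand. Its 2 SS18::SSX peaks with DMSO were chr15:76324815-76325037 at 11847 bp before the gene (fold 4.51, 35 fragments) and chr15:76341141-76341588 within it (fold 4.21, 33 fragments). Neither overlapped a WDR5 peak or was called with MS67. Of the 3 WDR5 peaks, the 1 at chr15:76329754-76330268 (fold 3.58, 23 fragments) was called with MS67 at chr15:76329932-76330231 (fold 3.35, 11 fragments), although the summits were 388 bp apart.

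**Figure D2:**
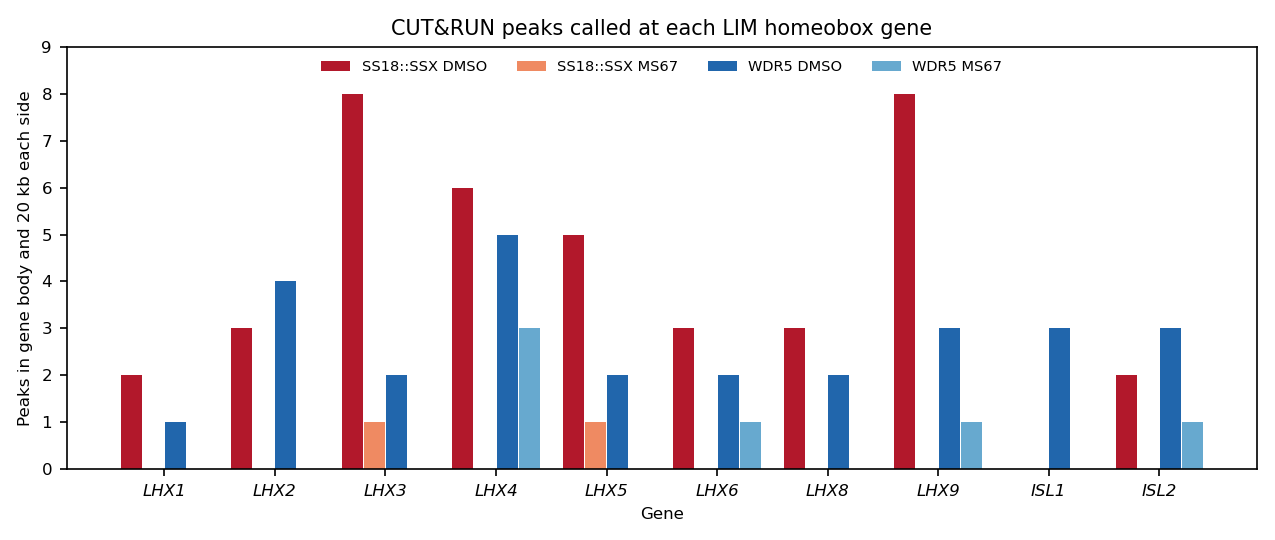
Number of peaks in each of the 4 lists at each gene, counted over the gene body and 20 kb on each side, with 1 library per bar. *LHX3* and *LHX9* have 8 SS18::SSX peaks with DMSO, *ISL1* has 0, and the bars with MS67 do not exceed 1 for SS18::SSX or 3 for WDR5.

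The density of SS18::SSX peaks with DMSO over the windows of the 10 genes, 608021 bp in all, was 6.58 per 100 kb, compared with 0.701 over the windows of all protein-coding genes. For WDR5 it was 4.44 against 1.78. The 9 genes with SS18::SSX peaks all had at least 2, which 17.6% of protein-coding genes had, and 7 had at least 3, against 9.83%. At least 5 were found at 4 genes (*LHX3*, *LHX4*, *LHX5*, and *LHX9*), against 4.46%. The median number of SS18::SSX peaks was 3 at the 10 genes and 0 at all protein-coding genes, and that of WDR5 peaks was 2.5 and 2. PAX and NKX genes, other families of developmental homeodomain or paired-domain factors, had SS18::SSX densities of 5.54 (9 genes) and 9.24 (14 genes) per 100 kb, so the LIM homeobox genes lay between them. *LHX3* alone had 16.4 SS18::SSX peaks per 100 kb and *LHX9* 12.6.

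Promoter peaks were a small part of this binding. For SS18::SSX with DMSO, *LHX3*, *LHX6*, and *LHX9* had a peak at a promoter of their own (13.4% of protein-coding genes did), and with MS67 only *LHX3* did (0.719%). These were different sites of *LHX3*. Its promoter peak with DMSO was lost, and the promoter peak with MS67 overlapped a DMSO peak whose center was not at a promoter. For WDR5, *LHX6* and *ISL1* had one with DMSO (42.9% of protein-coding genes) and *LHX6* with MS67 (27.7%). Of the 40 SS18::SSX peaks, 5 (12.5%; interval, 4.19 to 26.8) lay at any annotated promoter, compared with 23.7% of all SS18::SSX peaks. Of the 27 WDR5 peaks, 3 did (11.1%; 2.35 to 29.2), compared with 33.6% of all WDR5 peaks, whose share lies above that interval. The strongest of the 27, in *C1orf53*, was not counted, because its center lay 116 bp from the start, just past the limit of 100 bp. Within 5 kb of an annotated start lay 29 of the 40 SS18::SSX peaks (72.5%), against 55.4% of all SS18::SSX peaks. For WDR5 with DMSO, 17 of the 27 did (63%), against 65% of all WDR5 peaks. Both sets, the 27 and the 40, lay by choice in a gene or within 20 kb of one, which favors starts. The full lists were not so chosen, so the 72.5% does not set the 40 apart. By feature, 22 of the 40 lay in introns, 11 in intergenic DNA, 5 in noncoding exons, 1 in a coding exon, and 1 in an untranslated exon. The 27 WDR5 peaks divided into 12 in introns, 9 in intergenic DNA, 3 in coding exons, 2 in noncoding exons, and 1 in an untranslated exon.

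**Figure D3:**
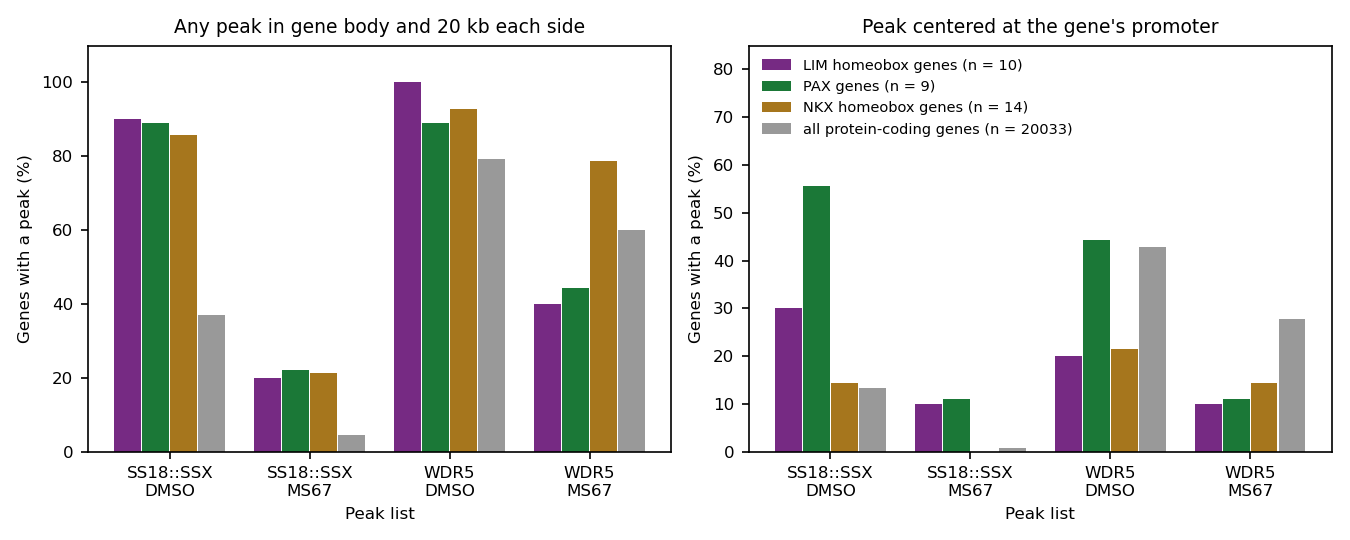
Percent of genes with at least 1 peak in each list, over the gene body and 20 kb on each side (left) and at the gene's own promoter (right), for the 10 LIM homeobox genes, 9 PAX genes, 14 NKX genes, and all 20033 protein-coding genes. For SS18::SSX with DMSO the LIM homeobox bar stands at 90% against 37.1% for all genes, whereas the WDR5 promoter bar stands at 20% against 42.9%.

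SS18::SSX and WDR5 shared most genes, and most of their peaks at these genes lay apart. With DMSO, 9 of the 10 genes had peaks of both, against 35.8% of protein-coding genes, and 7 had at least 1 overlapping pair, against 22.4%. Over all protein-coding genes, 7175 of the 7441 with SS18::SSX peaks also had WDR5 peaks, so the share with both follows the share with SS18::SSX. An overlapping pair was found at 4496 of those 7441 genes, to be set beside 7 of the 9 here. Of the 40 SS18::SSX peaks, 10 (25%; 12.7 to 41.2) overlapped a WDR5 peak, and 33.7% of all SS18::SSX peaks did. The paper's peak standard is −log10 q above 3 and a fold above 6 for WDR5 or 3 for SS18::SSX. Under it, 24 SS18::SSX peaks and 1 WDR5 peak were left at these genes. That WDR5 peak was the 1 at *C1orf53* (fold 11.5), 6838 bp from the nearest SS18::SSX peak. The overlap of 0 of 24 was therefore set by the cut on fold, and it does not describe how the peaks lie at these genes. With all peaks, the 10 overlapping pairs were 37% (19.4 to 57.6) of the 27 WDR5 peaks, and 13.9% of all WDR5 peaks overlapped SS18::SSX. The WDR5 share was alike at PAX genes (13 of 44, 29.5%) and NKX genes (11 of 34, 32.4%). Of the SS18::SSX peaks of these families, 25% and 20% overlapped WDR5. Summits of a pair were 15 to 283 bp apart, with a median of 96.5 bp. The median distance from an SS18::SSX peak to the nearest WDR5 peak was 2786 bp, the longest was 14481 bp, and 12 of the 40 had one within 1 kb. The 10 overlapping SS18::SSX peaks had a median −log10 q of 5.48 and the other 30 a median of 4.23.

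With MS67, 38 of the 40 SS18::SSX peaks (95%; 83.1 to 99.4) were not overlapped by any SS18::SSX peak, and 94.2% of all SS18::SSX peaks were not, a share inside that interval. None of the 10 that overlapped WDR5 was kept. With 94.2% of all SS18::SSX peaks lost, 0 of 10 does not set the sites of both proteins apart. By gene, 7 of the 9 with SS18::SSX peaks had none left, against 88.4% of protein-coding genes with such peaks, and 2 of the 9 kept at least 1 peak, against 9.18%. For PAX genes 52 of 56 peaks (92.9%; 82.7 to 98.0) and for NKX genes 50 of 55 (90.9%; 80.0 to 97.0) were lost, and these intervals overlap that of the LIM homeobox genes. No SS18::SSX peak appeared at the 10 genes with MS67 alone. When each summit with DMSO was scaled by calculation to the coverage of the deeper MS67 library, all 40 peaks passed the lowest −log10 p of the MS67 list (5.04), as did 96.9% of all SS18::SSX peaks. Scaling to a deeper library makes most peaks pass, so this count says little about these genes.

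For WDR5, 23 of the 27 peaks (85.2%; 66.3 to 95.8) were without a counterpart with MS67, against 75.0% of all WDR5 peaks, again inside the interval. By gene, 6 of the 10 had no WDR5 peak left, compared with 26.4% of protein-coding genes with WDR5 peaks, and 4 of the 10 kept at least 1, compared with 59.9%. *LHX9* was among these 4 only through the peak in *C1orf53*. For PAX genes 38 of 44 WDR5 peaks (86.4%; 72.6 to 94.8) and for NKX genes 24 of 34 (70.6%; 52.5 to 84.9) were lost. WDR5 peaks with MS67 were found at 4 of the 9 PAX genes and 11 of the 14 NKX genes. The MS67 library had the lower coverage. Scaled to the coverage of that library, 7 of the 27 peaks passed its lowest −log10 p (4.06), compared with 43.7% of all WDR5 peaks. Of those 7, 2 were kept, against 37.8% of all WDR5 peaks that passed, and of the other 20, 2 were kept, against 15.0% of all that did not pass. For most WDR5 peaks at these genes, loss of binding and loss of depth therefore cannot be told apart from the lists.

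The peaks called with both treatments can be set side by side in fragments and relative to the coverage of their own library. At *LHX3*, the SS18::SSX summit was 96.2 times the genome-wide coverage with DMSO and 50.2 times with MS67, and the local background was 23.4 and 16.7 times. At *LHX5*, the summit was 61.0 and 54.3 times, and the background 21.9 and 15.4 times. The fold of the *LHX5* peak was therefore higher with MS67, with a lower relative summit over a lower relative background. WDR5 summits at the 4 kept peaks were 78.9 and 119 times the coverage at *LHX4*, 46.2 and 77.2 times at *LHX6*, 62.6 and 65.3 times at *C1orf53* beside *LHX9*, and 62.6 and 65.3 times at *ISL2*. Only peaks called in both WDR5 lists enter here. In the shallower MS67 library a peak needs a higher summit relative to coverage to be called. The higher values with MS67 were thus partly set by the choice of peaks. Coverage here is that of the human reads of each library, and the mouse spike-in was not used, so these ratios do not compare the amount bound between treatments.

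Local background around the peaks was itself high at these genes. Its median was 14.0 times the genome-wide coverage for the 40 SS18::SSX peaks, against 5.72 times for all SS18::SSX peaks, and 11.4 against 4.91 times for WDR5 with DMSO. *LHX3* was highest for SS18::SSX, at 15.7 to 29.0 times over its 8 peaks, followed by *LHX5* (14.4 to 22.0) and *LHX9* (13.5 to 18.9), and *LHX6* and *LHX8* did not exceed 9.43. For WDR5 the highest was *LHX4*, at 20.8 to 31.3 times. The fold of a peak is relative to this background. The median fold of the SS18::SSX peaks was 3.31, below the 3.99 of all SS18::SSX peaks, whereas their median −log10 q was 4.32 against 3.68. Fold enrichment ranked the peaks of *LHX3* low, and their summits held 22 to 52 fragments against a median of 16 over the whole list. A peak over a high background needs more fragments to be called, so these counts do not set the *LHX3* summits apart. Whether neighboring peaks raised the local background was not tested.

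**Figure D4:**
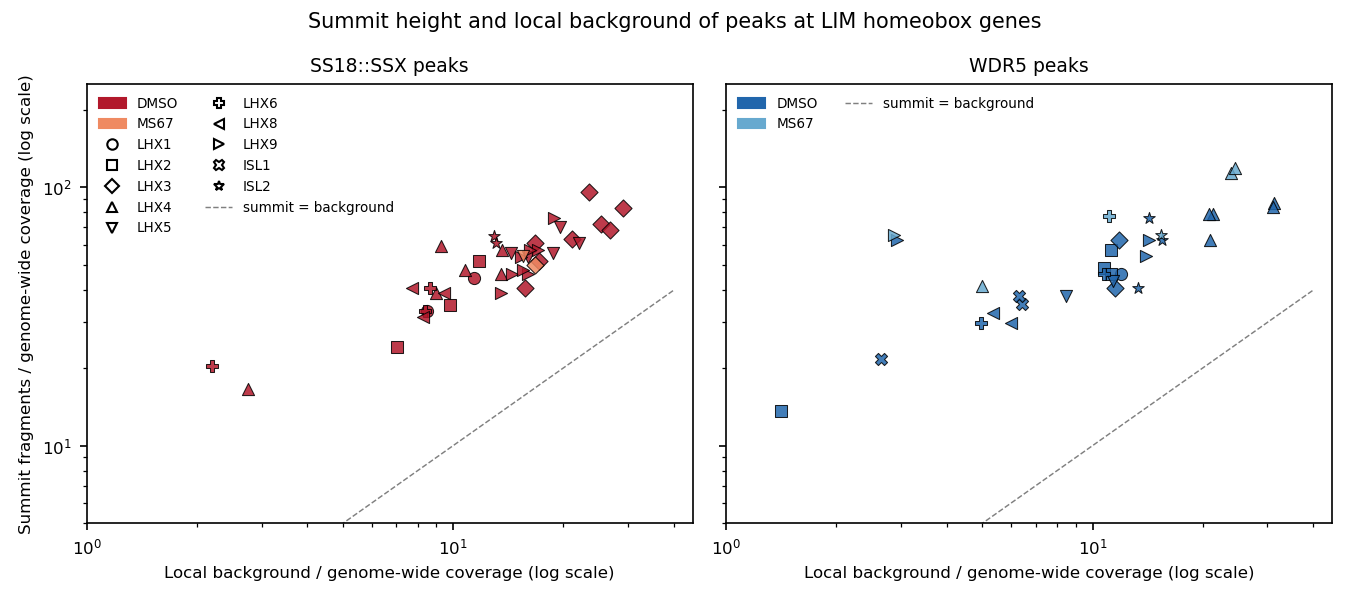
Fragments at the summit against local background, each divided by the genome-wide coverage of the library, on log axes, for every SS18::SSX peak (left) and WDR5 peak (right) at the 10 genes. Each point is 1 peak, the shape marks the gene and the color the treatment, and all points lie above the dashed line of equality. *LHX3* reaches the highest background for SS18::SSX and *LHX4* for WDR5.

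In base composition, the 300 bp around the summits had a median GC content of 60.7% at the 40 SS18::SSX peaks, near the 59.7% of all SS18::SSX peaks, with a median of 10 against 9 CpG sites. The WDR5 peaks were richer, with 65.0% GC against 57.3% and 20 against 9 CpG sites. CCAAT, searched on both strands like the other motifs, lay in 12 of 40 SS18::SSX windows (30%) and in 26.5% of all SS18::SSX windows, and GGGCGG in 16 (40%) against 27.8%. In WDR5 windows, CCAAT lay in 3 of 27 (11.1%) against 25.4%, and GGGCGG in 12 (44.4%) against 30.8%. CACGTG lay in 2 of the 40 SS18::SSX windows (5%, against 6.88% of all) and TAATTA in 1 (2.5%, against 2.89%). Neither lay in any of the 27 WDR5 windows, against 6.10% and 2.83% of all WDR5 windows. Of RefSeq promoters (250 bp before to 50 bp after a start, hg38), 14 matched 8 of the genes, with *LHX1* and *LHX5* unmatched. These promoters had a median GC content of 66.7% and 26.5 CpG sites, against 58.7% and 14 for all promoters.

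The other genes of LIM-domain regulation on the list were the LIM homeodomain genes *LMX1A* and *LMX1B*, the adaptors *LDB1* and *LDB2*, their partners *SSBP2*, *SSBP3*, and *SSBP4*, the LIM-only genes *LMO1* to *LMO4*, and *RLIM*, a ubiquitin ligase for LDB proteins. Of these 12 genes, 5 had SS18::SSX peaks with DMSO (41.7%, against 37.1% of protein-coding genes), 23 peaks in all, or 1.23 per 100 kb against 0.701. None was overlapped by an SS18::SSX peak with MS67 (23 of 23; 85.2 to 100), against a loss of 94.2% over all SS18::SSX peaks. WDR5 had 42 peaks at 10 of the 12 with DMSO (83.3%, against 79.2% of protein-coding genes), of which 37 (88.1%; 74.4 to 96.0) were lost, against 75.0% of all WDR5 peaks. *LMX1B*, needed for the dorsal limb and the kidney, had 12 SS18::SSX peaks, more than any of the 10 genes, in a window of 127105 bp. *LMX1A*, its paralog of midbrain dopamine neurons, had 0 SS18::SSX peaks and 10 WDR5 peaks, of which 3 were kept. *LDB1* had 1 SS18::SSX peak and 6 WDR5 peaks with DMSO, 1 of them at a promoter, and 3 WDR5 peaks with MS67. *LMO1*, an oncogene of T cell leukemia, had 6 SS18::SSX and 2 WDR5 peaks with DMSO.

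By the length of sequence under peaks in each of the 4 lists, the protein-coding genes most like *LHX3*, outside the LIM genes and their neighborhoods (smallest Euclidean distance of log2 covered bp per 100 kb, plus 1), were *CABLES2* (distance 0.311), *F7* (0.432), and *MCF2L* (0.590). *CABLES2*, for a CDK-binding protein, had 9 SS18::SSX peaks with DMSO and 1 with MS67, and 4 and 0 WDR5 peaks. *F7*, for coagulation factor VII, had 10 and 1 SS18::SSX peaks and 1 and 0 WDR5 peaks. Its neighbor *MCF2L* had 46 and 4 SS18::SSX peaks and 11 and 0 WDR5 peaks. Windows of neighboring genes can share peaks, so these 2 genes need not be separate examples.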

How the data were processed

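The files analysed were 4 lists of CUT&RUN peaks, 1 per library, from HSSY II cells. Per the paper's methods, the authors aligned reads with Bowtie2, removed duplicates with Picard, and called peaks in each library with MACS2. The submitters' processing notes add SAMtools 1.9, bedtools 2.28.0, deepTools 3.3.0, and the builds hg38 and mm10. The options of the MACS2 run are not given in the sources used here. The paper's supplement does give a standard for called peaks, −log10 q above 3 and a fold above 3 (SS18::SSX) or 6 (WDR5). The deposited lists also hold peaks below it, so all deposited peaks were used and that standard was an alternative. The authors deposited for each peak its position, its fold enrichment (a ratio to local background), its −log10 p and −log10 q, and a score that was not used.

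Fragments and background at each summit were recovered from the deposited fold and p-value, which fitted 100% of peaks within 0.001, and the step was tested on simulated data. This assumes MACS2's pseudocount of 1 and uses no control library. Genes and start sites were those of GENCODE 44. Every gene of the family was described. Of the 12 other LIM genes, *LMX1A*, *LMX1B*, *LDB1*, and the 2 with the most SS18::SSX peaks (*LMX1B* and *LMO1*) were described with values of their own, and the rest by counts. *ACBD6*, *C1orf53*, and the windows whose sequence is printed were chosen after their values were seen, and windows over exons of protein-coding genes were left out. The genes, lists, and rules were chosen with earlier results of these data known. Alternatives were other windows, thresholds, overlaps, promoters, list sizes, depths, and gene sets. Signals scaled to the spike-in were not used here. Python 3.11.15, numpy 2.4.6, pandas 2.3.3, scipy 1.17.1, and matplotlib 3.10.9 were used.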

Additional observations from a re-analysis of the deposited data

How the results depend on the processing

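Of 78 alternatives to the values for the 10 genes, 45 left the value within 1.5 times (counts) or within its interval (shares), and 33 moved it. Counts and shares carry no sign, so a reversal of direction was not scored. With the study's own peak standard (−log10 q above 3 and a fold above 6 for WDR5 or 3 for SS18::SSX), peaks fell to 24 and 1 for SS18::SSX and to 1 and 1 for WDR5 (DMSO and MS67), SS18::SSX loss was 100% (24 of 24), WDR5 loss 0% (0 of 1), and overlap with WDR5 0% (0 of 24), and promoter genes were 0 for SS18::SSX with MS67 and 0 in both WDR5 lists. With −log10 q above 5, peaks were 15 and 1 for SS18::SSX and 7 and 1 for WDR5, SS18::SSX loss was 100% (15 of 15), overlap 6.67%, and promoter genes 1 for SS18::SSX with DMSO and 0 in the other lists. Both cuts also applied to the MS67 lists. The *LHX3* peak counted as lost because its MS67 peak (fold 2.86, −log10 q 3.73) was removed. The *LHX5* peak with DMSO (fold 2.64, −log10 q 3.46) was itself removed. Under the study's standard, the 1 WDR5 peak with DMSO was at *C1orf53*. The shares of 100% and 0% thus reflect which peaks the cuts left. When each DMSO list was shortened to as many peaks as its MS67 list, SS18::SSX had 4 peaks, of which 3 (75%) were lost, and WDR5 had 7. Adding *LMX1A* and *LMX1B* gave 42 and 10 WDR5 peaks and 2 WDR5 promoter genes with MS67. Windows of 50 kb gave 11 WDR5 peaks with MS67. An overlap of 50% of the peak gave 12.5% of SS18::SSX peaks with WDR5. Promoters of 2000 bp before to 500 bp after a start gave 6 genes for SS18::SSX with DMSO. The gene record's own start gave 1 gene for SS18::SSX and 1 for WDR5 with DMSO, and 0 for either with MS67. Thresholds and shorter lists leave fewer peaks by construction. Wider windows, wider promoters, and added genes can only add peaks or genes. A stricter overlap rule can only lower the overlap, and a single start per gene can only lower the number of promoter genes. Beyond this, the cause was not tested. The alternative of SS18::SSX peaks scaled to the coverage of the MS67 library was chosen after seeing the data. No paired analysis was possible because each condition had 1 library and no replicate number.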
